A study of Mus musculus with 12 samples.

Results

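The genes of the cytosolic ribosomal proteins were followed in F4/80-positive endometrial cells of mice. They were taken by name: every gene whose symbol is Rpl, Rps or Rplp followed by a number, with pseudogene names left out and an FPKM (fragments scaled to transcript length and to the fragments of the library) of at least 1 in at least 3 of 12 libraries. Of the 22294 genes in the deposited table, 82 symbols fit the name and 79 also passed the minimum, 48 of the large and 31 of the small subunit. The 3 symbols below the minimum were paralogues. Rpl3l stayed under 1 FPKM in all 12 libraries, Rpl39l did not exceed 0.39 FPKM, and Rpl10l was listed at 0 throughout.

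The ribosome translates every messenger RNA of the cell. Its small subunit reads the message, its large subunit joins the amino acids, and nearly all of their proteins are made in matched amounts, then assembled with ribosomal RNA in the nucleolus. Many of their messenger RNAs begin with a terminal oligopyrimidine (TOP) tract, a C followed by a run of C and T, through which the kinase mTOR and the protein Larp1 take part in controlling their translation and stability. A few ribosomal proteins also act outside the ribosome, and a few have a paralogue that can stand in for them.

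The 12 libraries fell into 4 groups of 3. All came from endometrium that was digested with trypsin and collagenase, after which F4/80-positive cells were collected on magnetic beads. The primed MSC group had intrauterine adhesion (IUA) modelling and received primed human umbilical cord mesenchymal stem cells (hUC-MSCs primed with inflammatory cytokines, per the series title), the control MSC group had the modelling and control MSCs, the IUA group had the modelling with libraries named Matrigel, and the Sham group had a sham operation. The labels do not say how the adhesions were induced, what the Matrigel was for, how old the mice were or of which strain, or whether each library is a mouse of its own, so p-values measure only the spread between these libraries. Libraries were built from messenger RNA enriched on oligo(dT) beads, with cDNA of about 200 bases selected.

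The sorted fractions held macrophage markers in all groups and differed in what else they held. The summed FPKM of 8 macrophage markers, among them Adgre1 (which encodes F4/80), Csf1r and C1qa, lay between 3757 and 4356 in primed MSC, 3517 and 3886 in control MSC, 2840 and 3445 in IUA and 1459 and 1919 in Sham libraries. The sum of 8 epithelial markers, among them Krt8, Krt18 and Epcam, lay between 1466 and 2251 in primed MSC, 1429 and 3648 in control MSC, 1490 and 5125 in IUA and 7627 and 13355 in Sham libraries. All 8 epithelial markers were lower and 7 of 8 macrophage markers were higher in IUA than in Sham at an adjusted p under 0.05. The sum of 6 endothelial markers lay between 75.2 and 88.8 in primed MSC, 80.8 and 120 in control MSC, 85.3 and 103 in IUA and 168 and 304 in Sham libraries, and that of 5 smooth muscle markers between 116 and 196 in primed MSC, 80.8 and 161 in control MSC, 216 and 281 in IUA and 320 and 1063 in Sham libraries. The sum of 5 neutrophil markers lay between 61.6 and 170 in primed MSC, 74.8 and 159 in control MSC, 37.9 and 141 in IUA and 2.34 and 8.08 in Sham libraries. In IUA against Sham 6 of 6 endothelial and 4 of 5 smooth muscle markers were lower, and 4 of 4 tested neutrophil markers were higher. The part of these differences in any ribosomal protein result against Sham was not tested. In bulk RNA, fewer cells of a type and less RNA per cell cannot be told apart. Each library's FPKM summed to between 505460 and 563751, and the depth is unknown because no counts are given. By the same test 45% of the 11604 tested genes were lower in IUA than in Sham. The median of all tested genes was -0.35 on the log2 scale in that comparison, and -0.03 after median-ratio scaling, which sets the median gene equal between libraries. The counts of called genes against Sham are therefore also given under that scaling.

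The start of most of these genes carries a pyrimidine tract. RefSeq promoters (build GRCm38.p6, 250 bases before to 50 after the gene start) matched 59 of the 79 genes by symbol. A tract was a C followed by at least 6 bases that were each C or T, so 7 bases or more. It was counted only on the strand that reads as the messenger RNA, beginning within 50 bases of the start. Such a tract stood at 51 of the 59 genes (86.4%), against 43.7% of 9188 tested genes with a promoter and 28 of 69 mitochondrial ribosomal protein genes (40.6%). Of all 32851 promoters in the table, 40.2% held one. The 6 stretches of 30 bases shown belong to the paralogue pairs Rpl22l1 and Rpl22, and Rps27l and Rps27, and to Rpl37a and Rps9, whose levels are given further on. Capitals mark the tract nearest to the start, read 5′ to 3′.
Rpl22l1: agcccgttCTCTTCCCacggctgcagctca
Rpl22: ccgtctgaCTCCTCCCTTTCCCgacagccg
Rps27l: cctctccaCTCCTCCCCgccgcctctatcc
Rps27: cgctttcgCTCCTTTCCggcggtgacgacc
Rpl37a: cattgcgtCCCTTCCTCTTCggacttgggc
Rps9: cgccttgtCTCTCTTTgtctcgggcctgag
These lie at chr3:28805503-28805532 for Rpl22l1, chr4:152325679-152325708 for Rpl22, chr9:66946066-66946095 for Rps27l, chr1:72711276-72711305 for Rpl37a and chr7:3704028-3704057 for Rps9, all on the plus strand, and at chr3:90213629-90213658 on the minus strand for Rps27. Counted from the RefSeq start, the tract began at position 4 in Rpl22l1, at -2 in Rps27, -5 in Rps9, -12 in Rps27l, 25 in Rpl37a and -39 in Rpl22. A tract in these letters is a description and says nothing of translation, which was not measured.

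The 79 genes differed widely in level. Among the high ones, Rplp0, the P0 protein at the base of the ribosomal stalk and a common reference gene for quantitative PCR, averaged 409 FPKM over all 12 libraries, Rps14 395, Rpl4 294 and Rpl13 288 FPKM. Rps20 was lowest, at 6.40, 7.55 and 7.28 FPKM in primed MSC, 7.08, 8.00 and 7.63 in control MSC, 5.59, 6.97 and 7.05 in IUA and 8.04, 8.11 and 7.44 FPKM in Sham libraries. The next lowest on average were Rps21 at 14.1, Rpl39 at 15.1, Rpl22 at 23.4 and Rpl37 at 25.0 FPKM, and the median over the 79 genes was 93.8 FPKM.

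These levels are per transcript length, and ran with coding length more than with the length of the transcript. Across the 79 genes the Spearman correlation of the mean FPKM was 0.511 with coding length, 0.153 with the length of the principal transcript and 0.0178 with the number of near-identical pseudogenes. The genes share libraries and their lengths set part of the scale, so this is a description. Processed pseudogenes are numerous for this family: 74 of the 79 genes had at least 1 annotated pseudogene that matched at least 90% of the coding sequence at 95% identity or more, with a median of 5 copies and up to 55 for Rpl21, 31 for Rpl7a and 26 for Rpl29. Only 90 pseudogenes are listed in the deposited table, and how reads that fit a gene and its copies were shared is not given in the sources used here, so absolute levels of the genes with many copies are uncertain.

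Summed over the 79 genes, ribosomal protein messenger RNA took the largest share of the library in Sham. The sum was 1.58%, 1.74% and 1.74% of library FPKM in primed MSC, 1.74%, 1.73% and 1.78% in control MSC, 1.57%, 1.71% and 1.76% in IUA and 2.34%, 2.12% and 2.03% in Sham libraries. All 3 Sham libraries lay above the other 9, which overlapped one another. After median-ratio scaling the order turned round, with summed FPKM of 9341, 10107 and 9364 in primed MSC, 9442, 10229 and 10335 in control MSC, 9477, 9616 and 10564 in IUA and 9907, 8696 and 8521 in Sham libraries, and all groups overlapped.

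**Figure D1:**
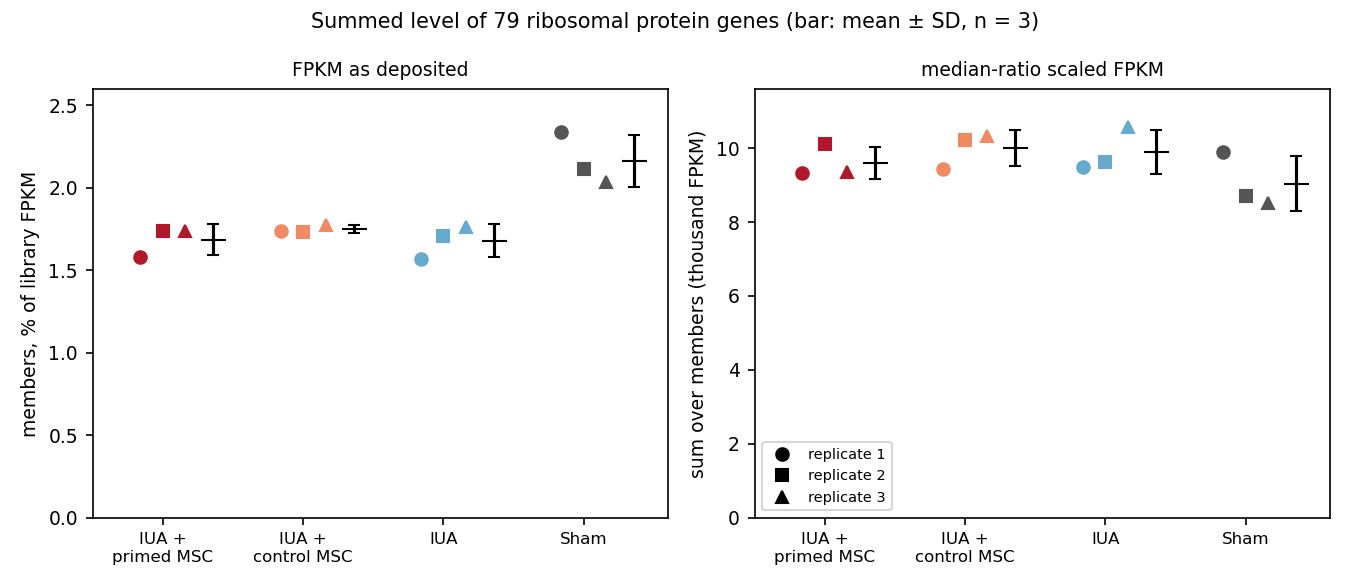
Left, the summed FPKM of 79 ribosomal protein genes as a percentage of the library's FPKM; right, the same sum divided by 1000 after median-ratio scaling. Each point is a library and the bar gives the mean ± SD of 3; the 3 Sham libraries lie above the other 9 on the left and within their range or below it on the right.

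The 2 subunits kept close to a fixed proportion. Small-subunit genes summed to 0.702 ± 0.007 of the large-subunit sum in primed MSC, 0.715 ± 0.012 in control MSC, 0.710 ± 0.013 in IUA and 0.678 ± 0.027 in Sham libraries (SD, n = 3). The values overlapped between IUA and Sham. One Sham library stood apart: replicate 1 was the highest of all 12 libraries for 66 of the 79 genes, at a median of 0.25 above the mean of the other Sham libraries on the log2 scale, against 0.01 over all tested genes. For the 13 genes with a principal transcript of at most 500 bases that excess was 0.50, against 0.20 for the other 66. Primed MSC replicate 1 was the lowest of all libraries for 53 genes. The factor that median-ratio scaling divides by was also lowest in that library, at 0.900, and highest in Sham replicate 1, at 1.24. How many of all tested genes were lowest or highest in these libraries was not counted.

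**Figure D2:**
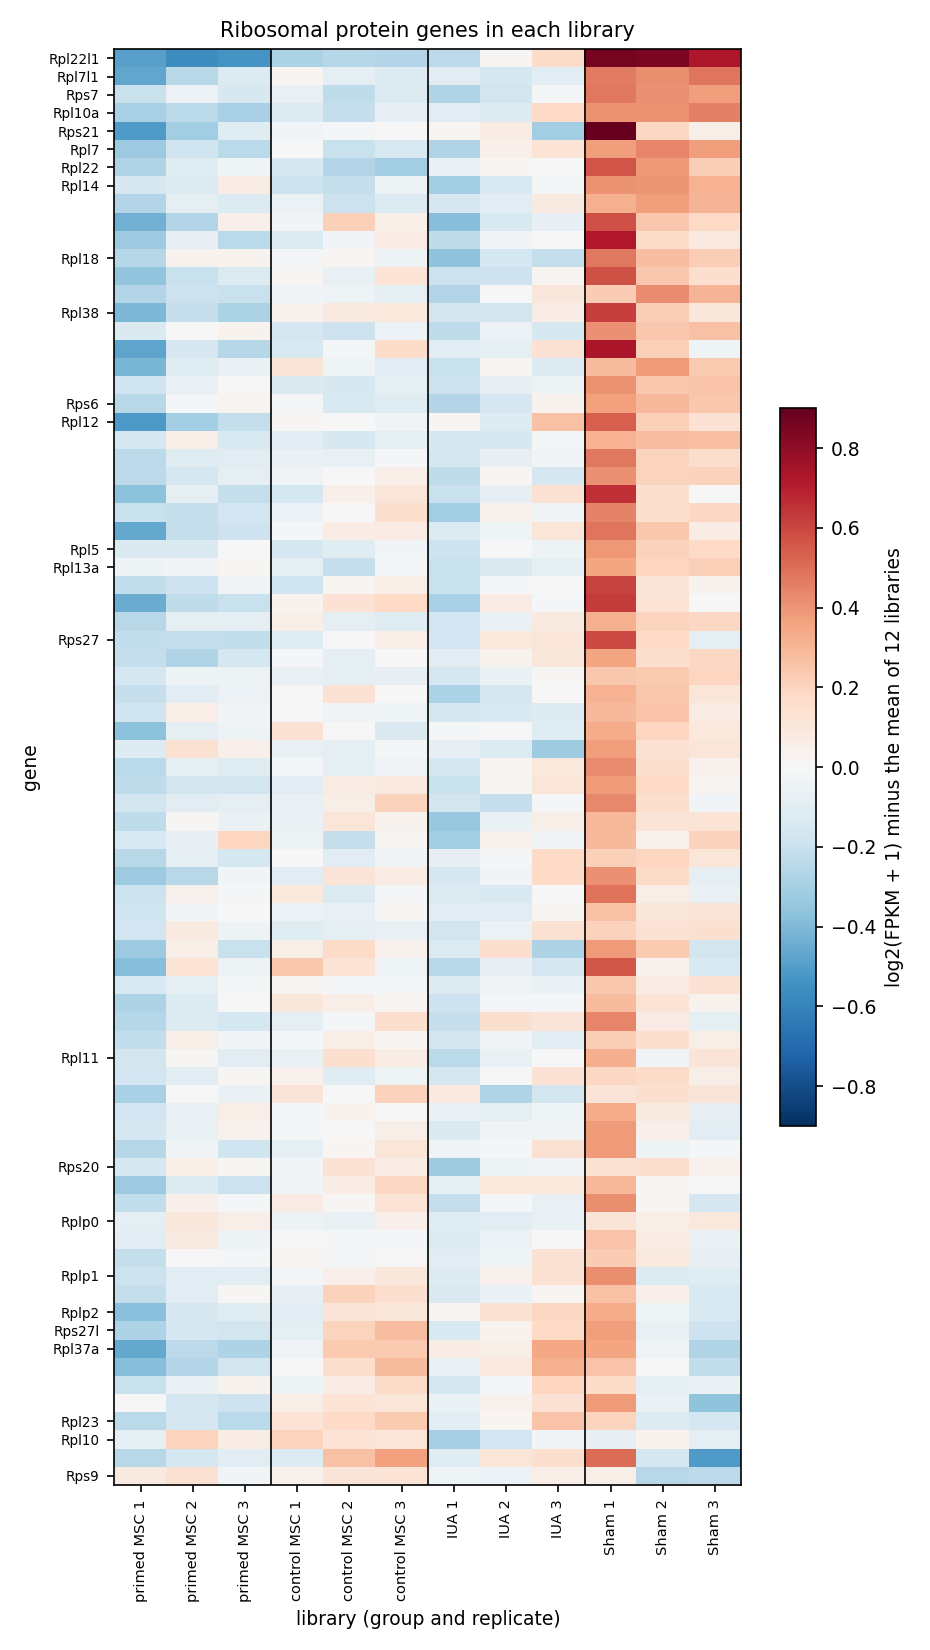
Each row is a ribosomal protein gene and each column a library, coloured by log2(FPKM + 1) minus the gene's mean over the 12 libraries; rows are ordered by the Sham mean minus the mean of the other 9 libraries, and some of them are labelled. Rpl22l1 is at the top and Rps9 at the bottom, and Sham replicate 1 is the highest library for 66 of the 79 genes.

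Differences between groups were tested with limma on log2(FPKM + 1), fitted to all 12 libraries and adjusted over 11604 genes by the Benjamini-Hochberg method, with a threshold of 0.05. Over the 4 groups, 36 of the 79 genes differed by the moderated F test, against 67% of all tested genes. Once each library was scaled to the median of the 79 genes, 10 did, against 50.6%. That scale removes by construction any change the 79 genes share, so the lower count is no result about them.

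Whether adhesion modelling came with another ribosomal protein level was read from IUA against Sham. Of the 79 genes, 34 were lower in IUA and 0 were higher, against 45% and 11.1% of all tested genes. The median change was -0.25 on the log2 scale, while all tested genes had a median of -0.35. On FPKM as deposited the count of 34 is thus close to that of genes in general. Under median-ratio scaling the median turned to 0.10, with 10 genes higher and 1 lower, beside 21.8% and 23.4% of all tested genes. In 41 genes the 3 IUA libraries lay below the 3 Sham libraries without overlap, against 47.7% of all tested genes. Without Sham replicate 1, 25 genes were lower and 1 was higher, against 4775 and 1372 of the 11604 tested genes.

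Rpl22l1 carried the largest change, with 29.2, 34.9 and 38.9 FPKM in IUA against 63.8, 63.1 and 57.9 FPKM in Sham libraries. Its highest IUA library stood well below its lowest Sham library. The log2 change was -0.83 ± 0.11 (SE, adjusted p = 0.000131, limma), and it was the only 1 of the 79 genes that was lower on all 6 scales compared (FPKM, TPM, median-ratio, quantile, GC-corrected and length-corrected), with -0.46 after median-ratio scaling (adjusted p = 0.00472). How many of all tested genes were lower on all 6 scales was not counted, and 23.4% were lower after median-ratio scaling alone. Its gene lies at chr3:28805436-28807424 on the plus strand (GRCm38, GENCODE M21). That start lies upstream of the RefSeq start from which its tract was measured.

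The falls of Rpl7l1, Rps7 and Rpl18 in IUA did not hold under median-ratio scaling. Rpl7l1, a relative of the large-subunit gene Rpl7, had 25.4, 24.2 and 25.3 FPKM in IUA against 37.9, 36.7 and 38.4 FPKM in Sham libraries, a log2 change of -0.58 ± 0.10 (adjusted p = 0.000722, limma), which became -0.21 after that scaling (adjusted p = 0.0920). Rps7, a small-subunit protein that binds Mdm2, had 80.9, 87.1 and 97.0 FPKM in IUA against 136, 130 and 127 FPKM in Sham libraries, a change of -0.57 ± 0.09 (adjusted p = 0.000441), which became -0.20 (adjusted p = 0.104). Rpl18, of the large subunit, had 67.3, 77.7 and 74.6 FPKM in IUA against 121, 106 and 101 FPKM in Sham libraries, a change of -0.57 ± 0.11 (adjusted p = 0.000967), which became -0.20 (adjusted p = 0.121) and turned to 0.030 with GC correction added. In Rps7, Rpl18 and Rpl7l1 all IUA libraries lay below all Sham libraries on the deposited scale.

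The same question for treated mice gave 25 genes lower and 0 higher in control MSC than in Sham, against 42.7% and 14.1% of all tested genes, with a median change of -0.21 beside -0.30 over all genes (-0.11 beside -0.29 without Sham replicate 1). For primed MSC against Sham, 47 of the 79 genes were lower and 0 higher, against 45% and 14.5% of all tested genes, with a median of -0.34 beside -0.33. These comparisons share the Sham libraries with the one above. Median-ratio scaling turned both medians, to 0.13 with 16 genes higher and 2 lower for control MSC (24.9% and 25.4% of all tested genes), and to 0.05 with 5 higher and 4 lower for primed MSC (26.6% and 26.6%). Without overlap, 38 genes lay lower and 1 higher in control MSC than in Sham (49.6% and 17% of all tested genes), and 51 lower and 0 higher in primed MSC than in Sham (50.6% and 17.5%). Without Sham replicate 1 the counts were 16 lower and 3 higher for control MSC, and 34 lower and 1 higher for primed MSC. Of the 11604 tested genes, 4596 were then lower and 1649 higher for control MSC, and 4856 and 1667 for primed MSC.

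**Figure D3:**
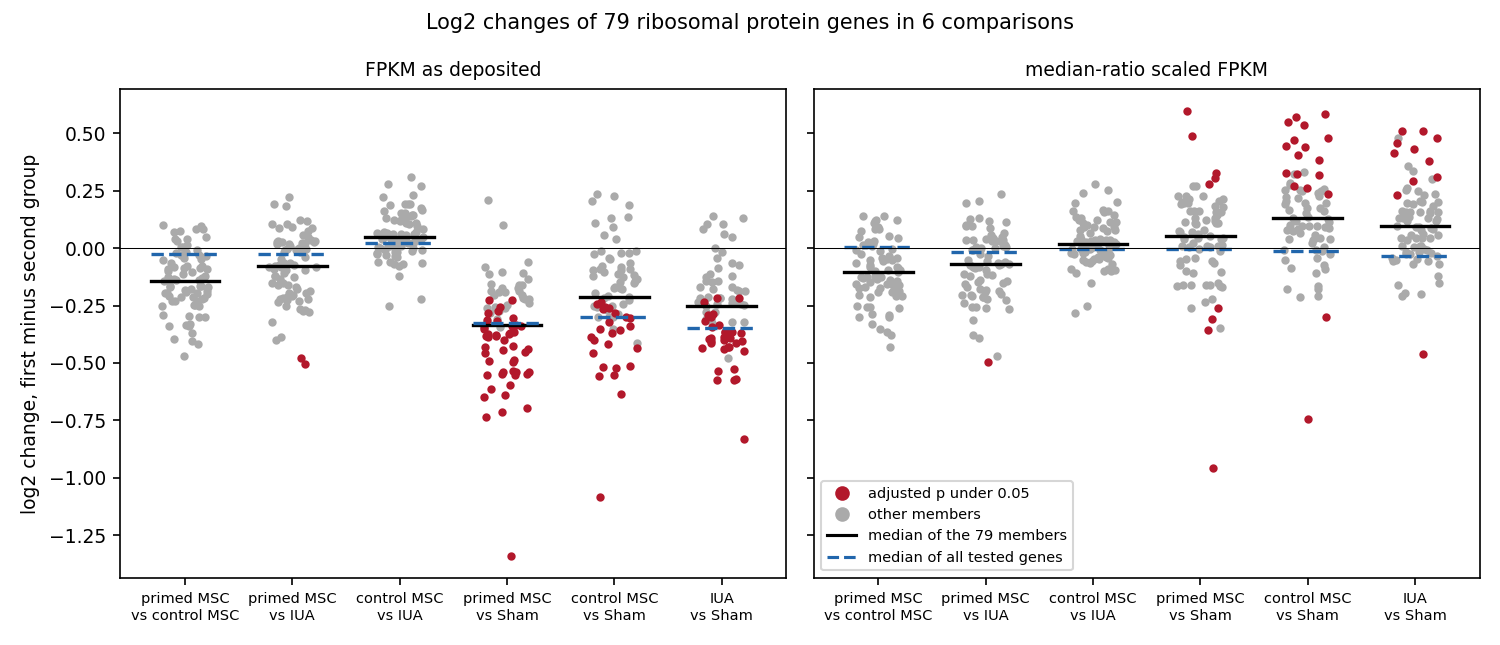
Log2 change of each of 79 ribosomal protein genes (points; first minus second group) in 6 comparisons, on FPKM as deposited (left) and after median-ratio scaling (right), with genes past an adjusted p of 0.05 in red, the median of the 79 genes as a black line and the median of all tested genes as a dashed blue line. The median against Sham lies at -0.34, -0.21 and -0.25 on the left and at 0.05, 0.13 and 0.10 on the right for primed MSC, control MSC and IUA.

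In primed MSC against Sham, Rpl22l1, Rpl10a, Rpl7 and Rpl7l1 were lower on all 6 scales. The share of all tested genes lower on all 6 was not counted, and 26.6% were lower after median-ratio scaling alone. Rpl10a, a protein of the mobile L1 stalk of the large subunit, had 74.9, 77.6 and 75.0 FPKM in primed MSC against 122, 122 and 126 FPKM in Sham libraries, a log2 change of -0.70 ± 0.09 (adjusted p = 8.44e-05, limma) that was -0.31 after median-ratio scaling (adjusted p = 0.0225). The primed MSC libraries lay within 3 FPKM of one another and far below Sham. Rpl7 had 132, 146 and 140 FPKM in primed MSC against 215, 225 and 215 FPKM in Sham libraries, and its relative Rpl7l1 had 19.4, 22.7 and 24.9 FPKM in primed MSC against 37.9, 36.7 and 38.4 FPKM in Sham. Their changes of -0.65 ± 0.11 (adjusted p = 0.000339) and -0.74 ± 0.10 (adjusted p = 0.000109) were -0.26 and -0.36 after median-ratio scaling (adjusted p = 0.0461 and 0.00756). The 5 largest falls held these 4 genes and Rps21, of the small subunit, with 9.23, 10.7 and 12.5 FPKM in primed MSC against 27.4, 15.6 and 14.2 FPKM in Sham libraries. Sham replicate 1 stood far above the other Sham libraries for Rps21, and its change of -0.71 ± 0.21 (adjusted p = 0.0107) was -0.43 without that library (adjusted p = 0.0311) and -0.35 after median-ratio scaling (adjusted p = 0.153). Rpl22l1 was at -1.34 ± 0.11 (adjusted p = 3.48e-06) and at -0.96 after that scaling (adjusted p = 2.39e-05).

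For control MSC against Sham the largest falls were in Rpl22l1, Rpl22, Rps7, Rpl10a and Rpl14. Rpl22l1 had 28.1, 28.7 and 28.6 FPKM in control MSC against 63.8, 63.1 and 57.9 FPKM in Sham libraries, a log2 change of -1.09 ± 0.11 (adjusted p = 1.57e-05, limma) that was -0.74 after median-ratio scaling (adjusted p = 0.000183). Rpl22 had 20.7, 19.0 and 18.3 FPKM in control MSC against 34.5, 30.5 and 26.9 FPKM in Sham libraries, a log2 change of -0.63 ± 0.11 (adjusted p = 0.000567, limma). After median-ratio scaling Rpl22 was still lower, at -0.30 (adjusted p = 0.0261). Rps7, at -0.56 ± 0.09, Rpl10a, at -0.55 ± 0.09, and Rpl14, at -0.52 ± 0.10, passed on the deposited scale but not after median-ratio scaling, with -0.21, -0.21 and -0.18 (adjusted p = 0.0723, 0.109 and 0.143).

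Among the groups with adhesion modelling few of these genes moved. Control MSC against IUA gave 0 genes higher and 0 lower, against 0.724% and 0.129% of all tested genes, with a median change of 0.049 (0.023 without control MSC replicate 3 and 0.081 without its replicate 1, 0.0054 without IUA replicate 1 and 0.083 without its replicate 3) and 2 genes at an unadjusted p under 0.05. The smallest p was that of Rpl10, one of the last proteins to join the large subunit, with 178, 169 and 167 FPKM in control MSC against 126, 138 and 152 FPKM in IUA libraries, a log2 difference of 0.31 ± 0.10 (adjusted p = 0.141, limma). Its groups did not overlap, which held with control MSC above IUA for 13 of the 79 genes, against 14.8% of all tested genes, and the other way for 2, against 7.33%. Median-ratio scaling also left 0 genes higher and 0 lower, beside 0.345% and 0.129%.

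Primed MSC against IUA gave 2 genes lower, Rpl22l1 and Rpl37a, and 0 higher, against 6.97% and 12.2% of all tested genes. The median was -0.078 beside -0.025 over all genes, and was -0.020 without primed MSC replicate 1 and -0.033 without IUA replicate 3. Of the 79 genes, 16 lay lower without overlap and 1 higher (17.4% and 20.1% of all tested genes), and median-ratio scaling left 1 lower, Rpl22l1, and 0 higher (7.73% and 12.8%). Rpl22l1 had 24.4, 23.2 and 23.6 FPKM in primed MSC against 29.2, 34.9 and 38.9 FPKM in IUA libraries. Every primed MSC library was below every IUA library, and the 3 IUA libraries spread widely. The log2 change was -0.51 ± 0.11 (adjusted p = 0.00795, limma) and -0.50 after median-ratio scaling (adjusted p = 0.00897), but it was -0.26 and did not pass after correction for GC content (adjusted p = 0.0729). IUA replicate 3, the library with the highest Rpl22l1 of that group, also had the strongest relation of expression to transcript GC content, a Spearman correlation across genes of -0.198, against -0.0343 to -0.107 in the other 11 libraries. Without it the change was -0.41 (adjusted p = 0.0206).

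Rpl37a, a short zinc-finger protein of the large subunit, had 40.4, 47.4 and 46.1 FPKM in primed MSC against 58.8, 58.0 and 71.6 FPKM in IUA libraries. The groups did not overlap. The change of -0.48 ± 0.15 passed narrowly (adjusted p = 0.0479, limma), and adjusted p was 0.0521 after median-ratio scaling and 0.160 without IUA replicate 3. Rpl12, at the base of the stalk, came next with 23.6, 27.4 and 29.3 FPKM in primed MSC against 34.6, 31.4 and 41.1 FPKM in IUA libraries (-0.40 ± 0.13, adjusted p = 0.0540).

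Primed against control MSC, the comparison of the 2 cell treatments, gave 0 genes higher and 0 lower, against 0.0776% and 0.0345% of all tested genes. The median change of -0.14 stood beside -0.027 over all genes, and was -0.083 without primed MSC replicate 1. At the level of single genes, 10 had an unadjusted p under 0.05, and for 30 genes the primed MSC libraries lay below all control MSC libraries, against 12.9% of all tested genes. Median-ratio scaling gave 0 higher and 0 lower, beside 0.112% and 0.0517%. When only these 2 groups were fitted 1 gene, Rpl23, was lower, against 57 of the 11604 tested genes. Rpl23 had the smallest p, with 73.7, 78.6 and 73.7 FPKM in primed MSC against 95.5, 99.4 and 103 FPKM in control MSC libraries (-0.39 ± 0.12, adjusted p = 0.215, limma). Rpl37a followed with 40.4, 47.4 and 46.1 FPKM in primed MSC against 54.7, 66.2 and 66.2 FPKM in control MSC libraries (-0.47 ± 0.15, adjusted p = 0.246). Both genes were separated without overlap and missed the threshold.

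The size of these differences ran with coding length and also with level. Across the 79 genes the change of primed against control MSC had a Spearman correlation of 0.596 with coding length, shorter genes tending to be lower in primed MSC. The correlation was 0.481 with mean FPKM, 0.392 with the length of the principal transcript and 0.0768 with GC content. Mean FPKM itself ran with coding length, and which of them the change follows was not tested. The median change was -0.25 for the 13 genes with a principal transcript of at most 500 bases and -0.12 for the other 66. After each library was corrected for transcript length the median over the 79 genes was -0.06. For IUA against Sham the correlation with coding length was -0.105. These correlations are across genes of the same libraries and are given without a test.

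**Figure D4:**
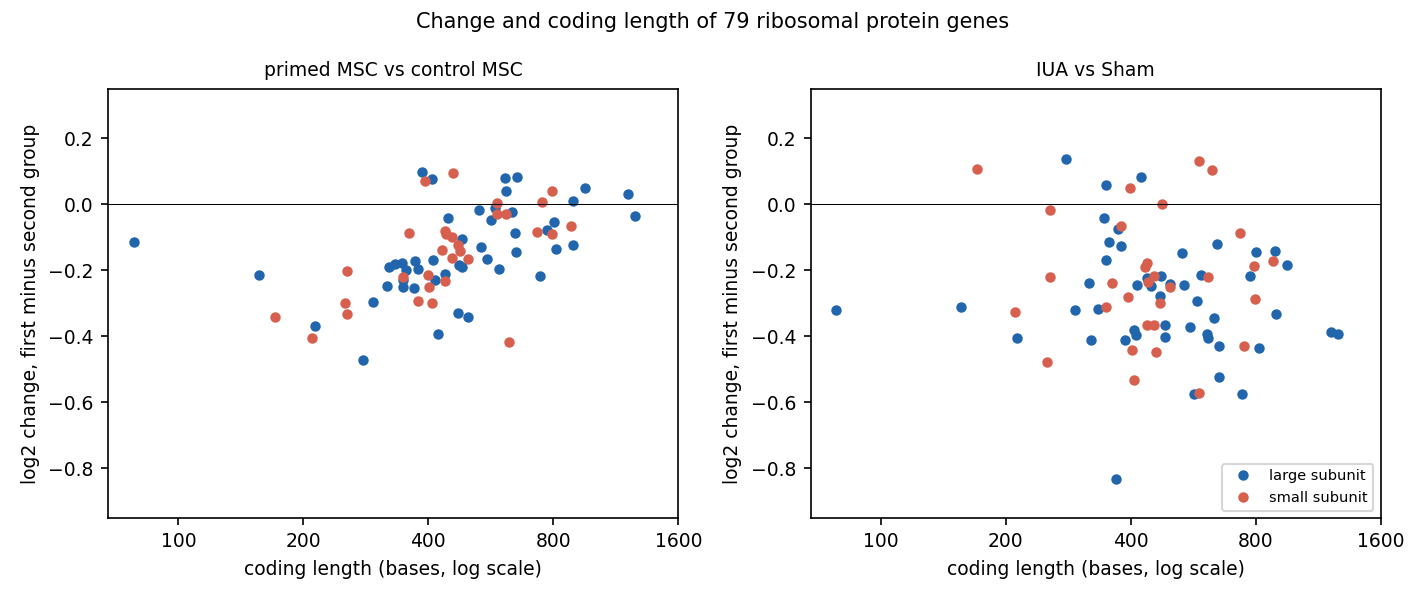
Log2 change (first minus second group) of 79 ribosomal protein genes against coding length in bases on a log axis, for primed against control MSC (left) and IUA against Sham (right), coloured by subunit. Shorter genes tend to lie lower on the left, where the Spearman correlation is 0.596, and at all heights on the right, where it is -0.105.

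The paralogue pairs let one gene be read against its relative in the same library, which a single scaling factor per library cannot change. Rpl22l1 can take the place of Rpl22 in the ribosome, and Rpl22 binds RNA and is known from mouse T cell development. Rpl22l1 over Rpl22 was 1.29, 1.09 and 1.06 in primed MSC, 1.36, 1.52 and 1.56 in control MSC, 1.33, 1.50 and 1.70 in IUA and 1.85, 2.07 and 2.15 in Sham libraries. All Sham ratios lay above the other 9 and all primed MSC ratios below the other 9, while control MSC and IUA overlapped. The mean log2 ratio of primed MSC minus that of IUA was -0.40, and minus that of Sham -0.82. Each difference between non-overlapping groups had an exact two-sided permutation p of 0.1, the smallest that 3 against 3 libraries allow, and an adjusted p of 0.225 over 18 such tests, so none passed.

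**Figure D5:**
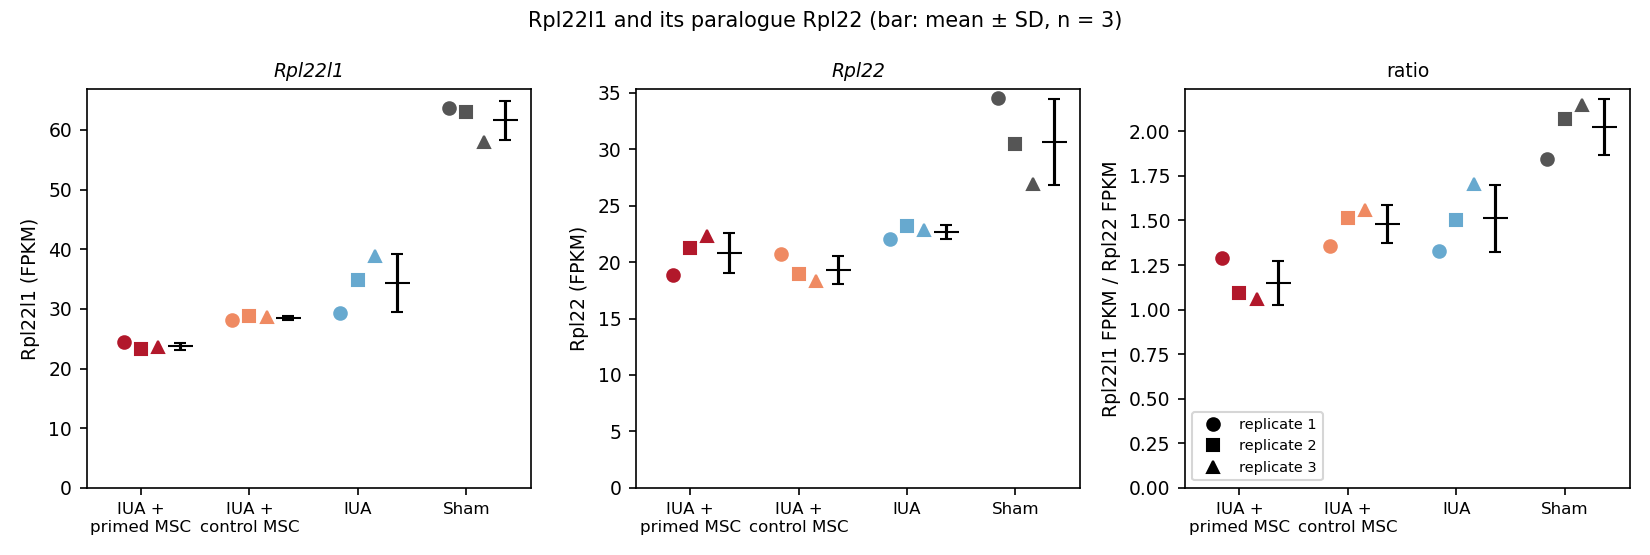
FPKM of Rpl22l1 (left) and Rpl22 (middle) and their ratio (right) in each library, with the mean ± SD of 3 as a bar. Rpl22l1 lies between 57.9 and 63.8 FPKM in Sham and between 23.2 and 24.4 FPKM in primed MSC libraries, and the ratio is highest in Sham and lowest in primed MSC.

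Rps27l, a paralogue of Rps27 that is a p53 target, ran the other way. Its ratio to Rps27 was 0.848, 0.922 and 0.918 in primed MSC, 0.902, 1.02 and 1.03 in control MSC, 0.901, 0.845 and 0.923 in IUA and 0.757, 0.744 and 0.820 in Sham libraries. Sham was below the other 3 groups without overlap, again at p = 0.1 by the exact permutation test. Rpl7l1 over Rpl7 differed little, with means of 0.160 ± 0.016 in primed MSC, 0.170 ± 0.007 in control MSC, 0.156 ± 0.026 in IUA and 0.173 ± 0.008 in Sham libraries (SD, n = 3), and its groups overlapped. The other listed relatives, Rpl3l, Rpl10l and Rpl39l, were too low for a ratio.

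The ribosomal stalk recruits the translation factors with their GTP and is built from Rplp0, Rplp1 and Rplp2. None of the 3 passed in any of the 6 comparisons on FPKM as deposited. After median-ratio scaling Rplp0 was higher than in Sham in both MSC groups, and Rplp2 in control MSC and in the IUA group. Other scales called Rplp0 the other way. In IUA against Sham it was lower on 3 of the 6 scales. In control MSC against Sham it passed on 3 of the 6 scales, and the sign differed between them. Rplp0 had 386, 438 and 426 FPKM in primed MSC, 395, 390 and 422 in control MSC, 379, 380 and 389 in IUA and 442, 425 and 436 FPKM in Sham libraries. The control MSC and IUA libraries lay just below Sham and the primed MSC libraries overlapped it. Rplp1 was at 111, 123 and 132 FPKM in IUA against 161, 110 and 111 FPKM in Sham libraries, with the high value in Sham replicate 1, and Rplp2 was at 49.99, 54.5 and 56.6 FPKM in IUA against 62.8, 48.2 and 45.0 FPKM in Sham.

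Of the proteins that join 5S ribosomal RNA in a particle that can restrain Mdm2, Rpl5 passed and Rpl11 did not. Rpl5 had 129, 130 and 142 FPKM in primed MSC, 127, 131 and 140 in control MSC, 125, 142 and 137 in IUA and 186, 164 and 161 FPKM in Sham libraries. Sham lay above the other 9 libraries, which overlapped. For primed MSC against Sham the log2 change was -0.34 ± 0.09 (adjusted p = 0.00716, limma), which median-ratio scaling turned to 0.045 (adjusted p = 0.696). Rpl11 had 56.5, 64.1 and 59.3 FPKM in primed MSC against 79.7, 62.3 and 69.0 FPKM in Sham libraries, with overlap.

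Of 6 genes whose proteins have roles outside the ribosome, 4 were lower in IUA than in Sham: Rps6, the S6 kinase substrate, Rpl13a, known from an interferon-induced complex that silences translation in human monocytes, Rps27a, which also encodes ubiquitin, and Rpl38, known from selective translation of Hox messages in mice. Rps3, also a DNA repair factor, and Rps19, mutated in human Diamond-Blackfan anaemia, did not pass. The 4 of 6 stand beside 45% of all tested genes, and Rps27a passed narrowly, at -0.30 ± 0.12 (adjusted p = 0.0435, limma). Its change was past the threshold in 10 of 28 alternatives, kept its sign in 26 and was 0.077 after median-ratio scaling (adjusted p = 0.610). Rps6 had 220, 259 and 267 FPKM in primed MSC, 259, 239 and 244 in control MSC, 218, 236 and 268 in IUA and 340, 321 and 310 FPKM in Sham libraries. Every Sham library stood above the other 9. The change of primed MSC against Sham was -0.38 ± 0.10 (adjusted p = 0.00699, limma) and 0.0057 after median-ratio scaling (adjusted p = 0.965). Median-ratio scaling left 0 of the 6 lower in IUA than in Sham and 1, Rps3, higher. Rpl13a had 127, 133 and 138 FPKM in IUA against 187, 167 and 170 FPKM in Sham libraries, without overlap, a change of -0.39 ± 0.09 (adjusted p = 0.00241, limma) that was -0.016 after that scaling (adjusted p = 0.899).

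Relative to the median of the 79 genes in the same library, some members stood above or below the rest. This scale, and the genes named from it, were chosen after the values were seen. It removes any change that the 79 genes share, which lowers their counts beside those of all tested genes by construction. The shares over all tested genes are therefore given as a description only. On it 6 genes were higher and 3 lower in IUA than in Sham, against 18.5% and 19.2% of all tested genes, 9 higher and 5 lower in control MSC than in Sham (19.7% and 24.4%), and 6 higher and 3 lower in primed MSC than in Sham (26.7% and 20%). Primed MSC against IUA gave 0 higher and 2 lower (10.8% and 3.12%), control MSC against IUA 0 and 0 (0.147% and 0.0862%) and primed against control MSC 0 and 0 (0% and 0%). Rps9, of the small subunit, had 289, 301 and 269 FPKM in primed MSC, 281, 296 and 298 in control MSC and 266, 264 and 285 in IUA libraries, against 284, 231 and 232 FPKM in Sham. It overlapped Sham in each case, with Sham replicate 1 the highest of that group. On FPKM as deposited, and with TPM or quantile scaling, it did not pass against Sham, with 0.21 ± 0.10 for primed MSC against Sham (adjusted p = 0.0827, limma) on FPKM, but relative to the other ribosomal protein genes it was higher by 0.60 in primed MSC (adjusted p = 0.000261), 0.46 in control MSC (adjusted p = 0.00169) and 0.42 in IUA (adjusted p = 0.00440). Median-ratio scaling gave 0.60 (adjusted p = 0.000866), 0.58 (adjusted p = 0.00110) and 0.51 (adjusted p = 0.00322) in primed MSC, control MSC and IUA. Rpl22l1 was lower, at -0.95, -0.86 and -0.55 on the same scale, in primed MSC, control MSC and IUA.

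The rest of the ribosome-making pathway was read from lists chosen with earlier results known. Over all tested genes, 45% were lower and 11.1% higher in IUA than in Sham with a median of -0.35, and 23.4% were lower and 21.8% higher after median-ratio scaling, with a median of -0.03. Of 19 tested genes of RNA polymerase I and ribosomal RNA transcription, 13 were lower and 0 higher in IUA than in Sham, with a median of -0.49, and 3 were lower and 1 higher after median-ratio scaling, with -0.15. Of 57 genes of nucleolar processing and assembly, 41 were lower and 0 higher, with a median of -0.52, and 13 were lower and 1 higher after that scaling, with -0.19. Nop58, a core protein of the box C/D particles that guide ribosomal RNA methylation, averaged 52.8 ± 7.2 FPKM in IUA and 109 ± 3.0 FPKM in Sham libraries (SD, n = 3), a log2 change of -1.04 ± 0.13 (adjusted p = 0.000131, limma) that was -0.67 after that scaling (adjusted p = 0.00103). Myc, a transcription factor that drives ribosome production, averaged 59.2 ± 8.5 FPKM in IUA and 103 ± 4.1 FPKM in Sham libraries, a change of -0.79 ± 0.13 (adjusted p = 0.000444) that was -0.42 (adjusted p = 0.0172). Of 17 elongation factors and other TOP genes 7 were lower and 1 higher on FPKM as deposited, which median-ratio scaling turned to 0 lower and 7 higher, and of 8 ribosome rescue genes 5 were lower, which became 0.

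Of 78 tested mitochondrial ribosomal protein genes, 24 were lower and 2 higher in IUA than in Sham, with a median of -0.16, and 36 were lower and 1 higher in primed MSC than in Sham, with a median of -0.33. The shares over all tested genes were 45% lower and 11.1% higher in IUA, and 45% lower and 14.5% higher in primed MSC. Median-ratio scaling turned these counts to 1 lower and 18 higher in IUA, with a median of 0.17, and 13 lower and 7 higher in primed MSC, with a median of 0.0079 (23.4% lower and 21.8% higher in IUA, and 26.6% each way in primed MSC, over all tested genes). In primed MSC against IUA, 6 were lower and 0 higher, against 6.97% and 12.2% of all tested genes. Of the cytosolic ribosomal protein genes that the name rule leaves out, Rpl36al was lower in each of the 3 groups than in Sham on FPKM as deposited and in none after median-ratio scaling. Rpsa, Fau and Rack1 passed in none of the 6 comparisons on FPKM as deposited, while all 3 were higher in IUA than in Sham after that scaling.

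Translation initiation factors load the ribosome onto the message. Of 32 tested, 5 were higher and 4 lower in primed MSC than in IUA, against 12.2% and 6.97% of all tested genes. In the same comparison 4 of 8 macrophage markers and 2 of 8 immediate-early and heat shock genes were higher, the summed FPKM of the second list being 1515 to 1933 in primed MSC and 812 to 1438 in IUA libraries, and their part in these results was not tested. Eif4a1, the helicase of the cap-binding complex, averaged 332 ± 4.5 FPKM in primed MSC and 156 ± 25.6 FPKM in IUA libraries, a change of 1.10 ± 0.13 (adjusted p = 0.000509, limma), and the scaffold Eif4g1 averaged 26.5 ± 2.3 FPKM in primed MSC and 13.6 ± 1.8 FPKM in IUA libraries (0.92 ± 0.14, adjusted p = 0.00160). Of 22 genes that control TOP messages or ribosome number, 5 were higher and 3 lower in primed MSC than in IUA, beside the same 12.2% and 6.97%. Ddit4 and Sesn2, inhibitors of mTOR, were among the higher ones. Ddit4 averaged 6.83 ± 0.65 FPKM in primed MSC and 2.19 ± 1.41 FPKM in IUA libraries. Sesn2 averaged 9.92 ± 0.94 and 3.84 ± 1.69 FPKM in the same groups. The higher genes were not only inhibitors. Rptor, part of an mTOR complex, was higher by 0.73 ± 0.16 on the log2 scale (adjusted p = 0.011, limma). Akt1, which acts upstream of mTOR as an activator, was higher by 0.97 ± 0.25 (adjusted p = 0.019, limma). Their joint effect on mTOR was not tested.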

How the data were processed

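Messenger RNA was measured in 12 libraries, 3 in each group. Per the submitters' processing notes fastp, HISAT2, StringTie, RSEM and DESeq2 were used with build mm10; neither versions nor roles are given in the sources used here. The authors deposited 1 FPKM value per gene and library; a search for steps of whole reads found no more than 29.0% of low values near whole multiples, so no count test was used. For 27 genes a symbol turned into a date was put back. The members and all gene lists were chosen with earlier results of these data known.

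The 11604 genes that reached FPKM 1 in 3 or more libraries were tested; log2(FPKM + 1) was fitted with limma 3.58.1 in R 4.3.3 (1 mean per group, variance trend, two-sided, Benjamini-Hochberg over all tested genes, threshold 0.05), and the pipeline was tested on simulated data. A fold change on this scale understates that of low genes. Named members are up to 5 per direction with the largest change among those that passed in a comparison, or the 3 of smallest p where under 3 passed, the 5 highest and 5 lowest by mean level, and members of the stalk, 5S particle, paralogue and outside-role lists. The results of a few genes that this rule names are not reported here. Gene positions, lengths and GC content come from GENCODE M21, pseudogene copies from BLAST 2.17.0, and promoters from RefSeq (GRCm38.p6). Alternatives were pseudocounts of 0.1 and 0.5, no filter or FPKM 5, TPM, median-ratio and quantile scaling, the compared groups alone, a replicate block, GC and length correction (lowess, span 0.3), no variance trend and leaving out each library; scaling to the members' median and combinations of corrections were added after seeing the data.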

Additional observations from a re-analysis of the deposited data

How the results depend on the processing

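The counts of ribosomal protein genes against Sham depend on the scaling. With IUA against Sham, 34 lower genes became 59 with TPM, 1 lower and 10 higher with median-ratio scaling, 3 lower and 6 higher on the members' median, 54 lower with length correction, 1 lower and 22 higher with GC correction and median-ratio scaling together, and 21 lower when only the groups compared were fitted. Over all 11604 tested genes 6118 were lower and 1078 higher with TPM, and 5278 and 1296 with length correction. They were 2751 and 2496 with GC correction and median-ratio scaling, and 4349 and 1038 with only the groups compared. With control MSC against Sham, 25 became 46 with TPM, 2 lower and 16 higher with median-ratio scaling, 5 lower and 9 higher on the members' median, 41 with length correction, 40 with GC and length correction, and 2 lower and 20 higher with GC correction and median-ratio scaling. Quantile scaling added 2 higher genes and GC correction 1. Over all tested genes 5711 were lower and 1391 higher with TPM, and 5006 and 1644 with length correction. They were 5213 and 1715 with GC and length correction, and 3018 and 2908 with GC correction and median-ratio scaling. With primed MSC against Sham, 47 became 4 lower and 5 higher with median-ratio scaling, 3 lower and 6 higher on the members' median, and 3 lower and 6 higher with GC correction and median-ratio scaling. Length correction added 1 higher gene, alone or with GC correction. Over all tested genes 3146 were lower and 3168 higher with GC correction and median-ratio scaling, and 5240 and 1691 with length correction. With primed MSC against IUA, 2 lower genes became 1 without a filter, with TPM, median-ratio scaling, length correction, the replicate block or no variance trend, 7 with GC correction, alone or with median-ratio scaling, and 0 with GC and length correction; higher genes were 1 with GC or length correction alone and 2 with either combination. Over all tested genes primed MSC against IUA gave 671 lower and 1599 higher with TPM, and 773 and 1323 with GC correction. It gave 842 and 1410 with GC correction and median-ratio scaling, and 609 and 1196 with GC and length correction. Primed against control MSC gave 1 lower gene when only the groups compared were fitted, against 57 lower and 150 higher of all tested genes. The F test called 57 genes with TPM, 11 with median-ratio scaling, 10 on the members' median and 19 with GC correction and median-ratio scaling, in place of 36. For the F test the share over all tested genes is given above only for the main fit and the members' median. The cause of these shifts was not tested beyond the construction of each scale.

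Leaving out each library in turn gave 25 to 41 lower and 0 to 1 higher genes for IUA against Sham, 16 to 34 and 0 to 3 for control MSC against Sham, 34 to 50 and 0 to 1 for primed MSC against Sham, and 1 to 4 lower and 0 higher for primed MSC against IUA, with 28 to 44 genes by the F test. Over all tested genes the lower counts ran from 4466 to 5105, 4165 to 5256, 4490 to 5454 and 294 to 1050 in these 4 comparisons. The lowest counts of the 79 genes against Sham came without Sham replicate 1. Over the alternatives, single named changes kept the call in 940 cases, lost it in 64, gained it in 24 and reversed in 8. A change of sign where neither fit passed is counted among the 940. The tally leaves out some changes given above. Among them are Rps27a and Rpl13a in IUA against Sham, which kept their sign in 26 and 27 of 28 alternatives. Under GC correction with median-ratio scaling, Rpl10a and Rpl18 in IUA against Sham were at 0.10 and 0.030, and Rps6 and Rpl5 in primed MSC against Sham at 0.059 and 0.075. Rps6 and Rpl5 were also at 0.0057 and 0.045 under median-ratio scaling and at 0.0073 and 0.048 on the members' median. The labels do not state whether the replicate numbers pair libraries. Deviations of same-numbered libraries from their group means correlated between -0.293 and 0.288. Their median was -0.063, against 0.018 for libraries of other numbers. With 3 libraries in a group these values cannot decide whether libraries are paired. The replicate block gave 28, 21 and 42 lower genes for IUA, control MSC and primed MSC against Sham, and 5050, 4869 and 5122 over all tested genes. Depth is unknown, so the precision of low genes such as Rps20 cannot be given.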
